A study of Mus musculus with 2 samples.

Results

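Toll-like receptors and the proteins that couple them to signalling were followed through the immune cells of the mouse colon lamina propria, the connective tissue beneath the gut epithelium. The 10 genes were 7 receptors (Tlr1, Tlr2, Tlr3, Tlr4, Tlr7, Tlr9 and Tlr13), the co-receptor Cd14 and the adaptors Myd88 and Ticam1. They were taken by symbol from the 32285 genes of the matrices, by a rule that uses no measured value, although the list was drawn up with earlier results of these data known. Single-cell RNA profiles came from 2 libraries, one titled Runx3_fl and one titled Runx3, each the only library of its group. The study compared littermates homozygous for a floxed Runx3 allele (Runx3 fl/fl) with mice that also carried Cre under the Lyz2 promoter, which acts in myeloid cells at large and not in macrophages alone. The study described the animals as young adult males pooled before sequencing, so the spread between animals cannot be seen. Neither title states Cre, so no genotype was assigned, and the libraries are named by their titles.

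Toll-like receptors recognise molecules shared by microbes. TLR2 pairs with TLR1 or TLR6 at the cell surface to bind bacterial lipopeptides, and TLR4 binds lipopolysaccharide that CD14 hands on. TLR3, TLR7, TLR9 and TLR13 sit in endosomes and read double-stranded RNA, single-stranded RNA, unmethylated CpG DNA and bacterial ribosomal RNA, respectively. MyD88 carries the signal of nearly all of these receptors to NF-kappa B, TRIF (the product of Ticam1) serves TLR3 and internalised TLR4, and gut macrophages are known for muted responses to such ligands.

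Upstream sequences were read for the members because Tlr2 and Tlr3 had opposite cell distributions below. RefSeq windows of the 250 bases before the transcription start on GRCm38.p6 matched 7 of the 10 members, leaving out Tlr4, Tlr7 and Cd14. The kappa B letters, GGG then any 3 bases then TTCC, searched on both strands, were in 4.65% of all 32851 windows and in those of Tlr2 and Tlr3 among the members. The purine-rich ETS core GAGGAAG, searched the same way, was in 10.6% of all windows and in those of Tlr1, Tlr9, Tlr13 and Ticam1. These 30-base stretches show the match in capitals, 5′ to 3′ on the strand of the gene. They are chr3:83841762-83841791 (minus strand) for Tlr2, chr8:45410572-45410601 (minus strand) for Tlr3 and chrX:106143181-106143210 (plus strand) for Tlr13.
Tlr2: taggacacctGGGGAATTCCcacacggagc
Tlr3: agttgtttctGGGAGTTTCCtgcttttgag
Tlr13: aaaaaagagaaGAGGAAGgaaatgtctcat
The matches began 173 bases before the RefSeq start of Tlr2, 211 before that of Tlr3 and 83 before that of Tlr13. These starts differ from the ends of the GENCODE gene bounds given with the genes below, and the Tlr3 stretch lies inside its GENCODE bounds. The motifs were picked with the windows in view, and a match is a description of letters, not evidence of binding.

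Filtering for 200 to 6000 detected genes and at most 15% mitochondrial UMIs, molecular barcodes that count each RNA molecule once, kept 11885 cells of the Runx3_fl-labelled library and 8167 of the Runx3-labelled library. Their median depths were 9573 and 5731 UMIs, and 37 cell barcodes occurred in both deposited matrices. The libraries stood apart in ways that may bear on their labels. In gated macrophages Runx3 itself was at 157 CPM (UMIs scaled to a class total of 1000000) in the Runx3_fl-labelled library and at 244 CPM in the Runx3-labelled library. Runx3 was at 155 and 202 CPM in monocytes and at 246 and 255 CPM in T cells, whereas NK cells had 831 and 601 CPM. Xist is transcribed from the inactive X chromosome of females. It was at 86.7 to 298 CPM across the gated classes of the Runx3_fl-labelled library and at 0 to 0.392 CPM in the Runx3-labelled library. Lyz2, whose promoter drives Cre in the study, was at 3114 CPM in macrophages of the Runx3_fl-labelled library and 1098 CPM in the Runx3-labelled library. Monocytes were at 4312 and 1646 CPM. Neutrophils, B cells and T cells went the other way, with neutrophils at 839 and 1895 CPM. The bearing of Runx3 and Lyz2 levels on the labels was not tested. The labels call the cells CD11b positive, yet cells gated on Cd3e made up 21.4% and 3.07% of the kept cells, with 41.2 and 15.3 CPM of Itgam, the CD11b gene. Every difference between libraries below therefore has no replicate check and cannot be told apart from these other differences.

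Cells were gated on genes that are not members: macrophages on Csf1r and C1qa, monocytes on Ly6c2 with Csf1r, cDC1 (conventional type 1 dendritic cells) on Xcr1, the cDC2 gate (type 2) on Cd209a, neutrophils on Csf3r without Csf1r, B cells on Cd79a, NK cells on Ncr1 and T cells on Cd3e. The macrophage gate held 406 cells of the Runx3_fl-labelled library and 498 of the Runx3-labelled library, and the monocyte gate held 1001 and 1510. The neutrophil gate held 428 and 407 cells, the cDC2 gate 162 and 132, and the cDC1 gate 235 and only 19. Markers that the gates did not use were highest in the expected class for 8 of 8 macrophage and 6 of 6 neutrophil markers in both libraries. For cDC2 this held for 2 of 6 markers, so these are referred to as Cd209a-gated cells. For monocytes it held for 5 of 7 and 3 of 7, with Lyz2 and Chil3 highest in neutrophils in the Runx3-labelled library.

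Of the 10 members, 9 reached 10 CPM in some class. The class with the highest level was the same in both libraries for 6 of them, against 43.0% of all genes at that level. For 6 members it was macrophages, monocytes or neutrophils in both libraries, against 18.2% of all genes. Tlr1 and Cd14 were highest in macrophages, Tlr7 in monocytes, Tlr4 and Tlr13 in neutrophils and Tlr3 in cDC1. Tlr2, Myd88 and Ticam1 were led by different classes in the 2 libraries. Among the 9, the leading class had an interval overlapping that of the next for Tlr1, Tlr2, Tlr7 and Ticam1 in the Runx3_fl-labelled library. In the Runx3-labelled library this held for Tlr7, Myd88 and Ticam1.

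**Figure D1:**
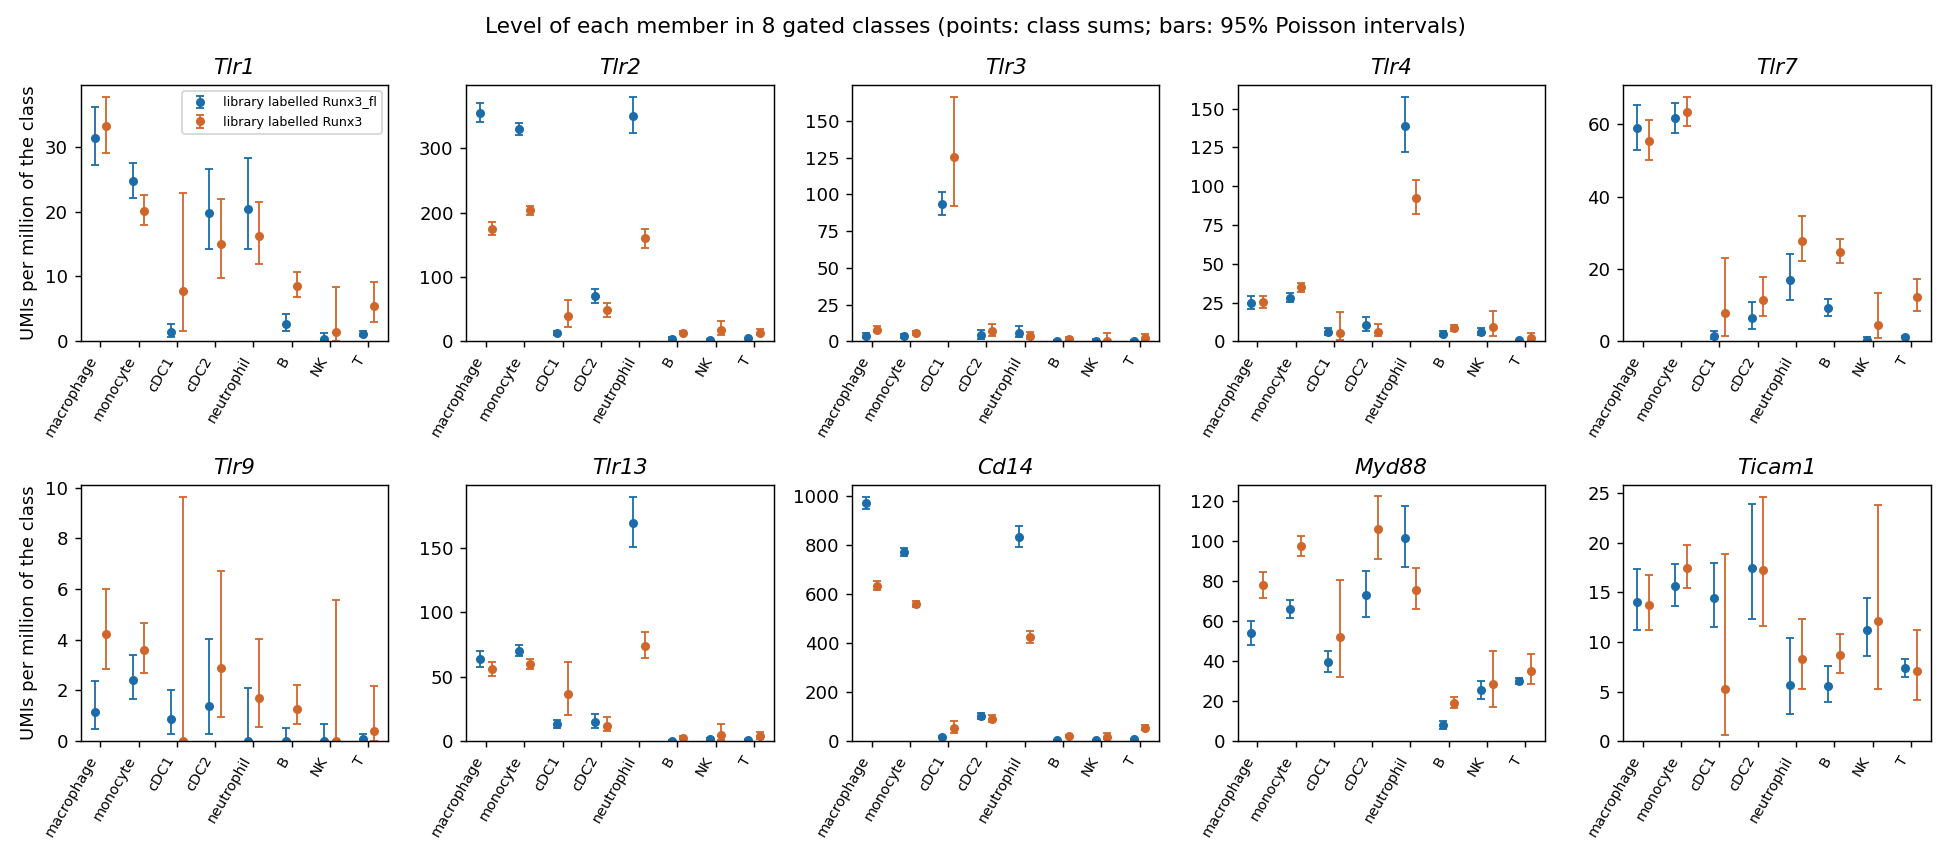
CPM (vertical axes, linear, each panel with its own range) for the 10 members in 8 gated classes, with 95% Poisson intervals of the summed UMIs; blue is the Runx3_fl-labelled library and orange the Runx3-labelled library. Tlr3 stands at 93.5 and 125 CPM in cDC1 and below 10 CPM elsewhere, while Cd14 and Tlr2 stand high in macrophages, monocytes and neutrophils.

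Tlr2 (ENSMUSG00000027995, chromosome 3, 83836272 to 83841767 on GRCm38) was the single member, of the 8 at 10 CPM or more in macrophages, that differed by at least 2-fold between the libraries there. It was at 355 CPM (95% Poisson interval 341 to 371, from 2174 UMIs) in the Runx3_fl-labelled library and at 175 CPM (165 to 185, from 1247 UMIs) in the Runx3-labelled library. The log2 ratio, of CPM plus 1 and always Runx3 over Runx3_fl, was -1.02, just past the 2-fold limit. Its counting interval, computed without the added CPM as for all ratios here, ran from -1.12 to -0.92. Among 8144 genes at 10 CPM or more in macrophages, 2.97% were at least 2-fold lower in the Runx3-labelled library and 11.0% at least 2-fold higher. Of the 8 members at that level 1 was lower and 0 were higher. These intervals, like all others given, were computed at 95% and cover counting error only.

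The Tlr2 difference was smaller in monocytes than in macrophages, and the neutrophil ratio had an interval overlapping that of macrophages. In monocytes Tlr2 was at 330 CPM against 204 CPM, a log2 ratio of -0.69 (-0.76 to -0.63). In neutrophils it was at 351 against 160 CPM, a ratio of -1.13 (-1.31 to -0.96). In Cd209a-gated cells it was at 69.8 against 48.4 CPM, a ratio of -0.52 (-0.93 to -0.14). Within the Runx3_fl-labelled library neutrophils were not told apart from macrophages or from monocytes. Macrophages (341 to 371 CPM) lay just above monocytes (320 to 339 CPM) there, whereas monocytes were highest in the Runx3-labelled library. The monocyte direction depended on the gate: 1 UMI of Ly6c2 alone, with no Csf1r requirement, no precedence of macrophages and cells of several gates let in, gave a ratio of 0.21. That wider gate, of 5544 and 5627 cells, differs in all these ways at once, and it put the monocyte ratio of every member tested there above 0, with 0.87 for Tlr1, 1.07 for Tlr4, 1.05 for Tlr7 and 0.73 for Tlr13.

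Cd14, the co-receptor that passes lipopolysaccharide to TLR4, was lower in the Runx3-labelled library in macrophages and monocytes by less than 2-fold. Macrophages had 973 CPM (949 to 998) in the Runx3_fl-labelled library and 635 CPM (616 to 653) in the Runx3-labelled library, a log2 ratio of -0.62 (-0.67 to -0.56). Monocytes had 773 and 561 CPM, a ratio of -0.46 (-0.50 to -0.42), which turned to 0.46 when 1 UMI of Ly6c2 alone defined them. Neutrophils had 835 and 424 CPM, a ratio of -0.98 (-1.09 to -0.87). In Cd209a-gated cells 102 and 91.6 CPM were not told apart, with an interval of -0.46 to 0.14.

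Tlr4, the lipopolysaccharide receptor (ENSMUSG00000039005, chromosome 4, 66827584 to 66930284), did not follow its co-receptor in macrophages. It was at 24.9 CPM (21.1 to 29.1) against 25.1 CPM (21.6 to 29.1), with a log2 ratio of 0.02 (-0.30 to 0.34). In monocytes it was at 28.0 and 34.8 CPM, a ratio of 0.30 (0.12 to 0.51). Neutrophils held the most in both libraries, 139 CPM (122 to 157) and 92.5 CPM (81.8 to 104), a ratio of -0.58 (-0.84 to -0.33). Their level was 4.96 times that of monocytes, the next class, in the Runx3_fl-labelled library and 2.66 times in the Runx3-labelled library.

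Tlr1, the partner of TLR2 (chromosome 5, 64924679 to 64933563), was at 31.4 and 33.1 CPM in macrophages, a ratio of 0.08 (-0.20 to 0.36). It was at 24.7 and 20.1 CPM in monocytes, 20.4 and 16.2 CPM in neutrophils and 19.8 and 15.0 CPM in Cd209a-gated cells. The interval of the monocyte ratio lay below 0 (-0.52 to -0.07), and the other intervals crossed it.

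The median gene at 10 CPM or more lay at a log2 ratio of 0.20 in macrophages, monocytes and Cd209a-gated cells and at 0.37 in neutrophils. Setting that median to 0 moved the macrophage ratios to -1.22 for Tlr2, -0.82 for Cd14 and -0.19 for Tlr4. It left Myd88 at 0.32 and moved Tlr1 to -0.13.

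**Figure D2:**
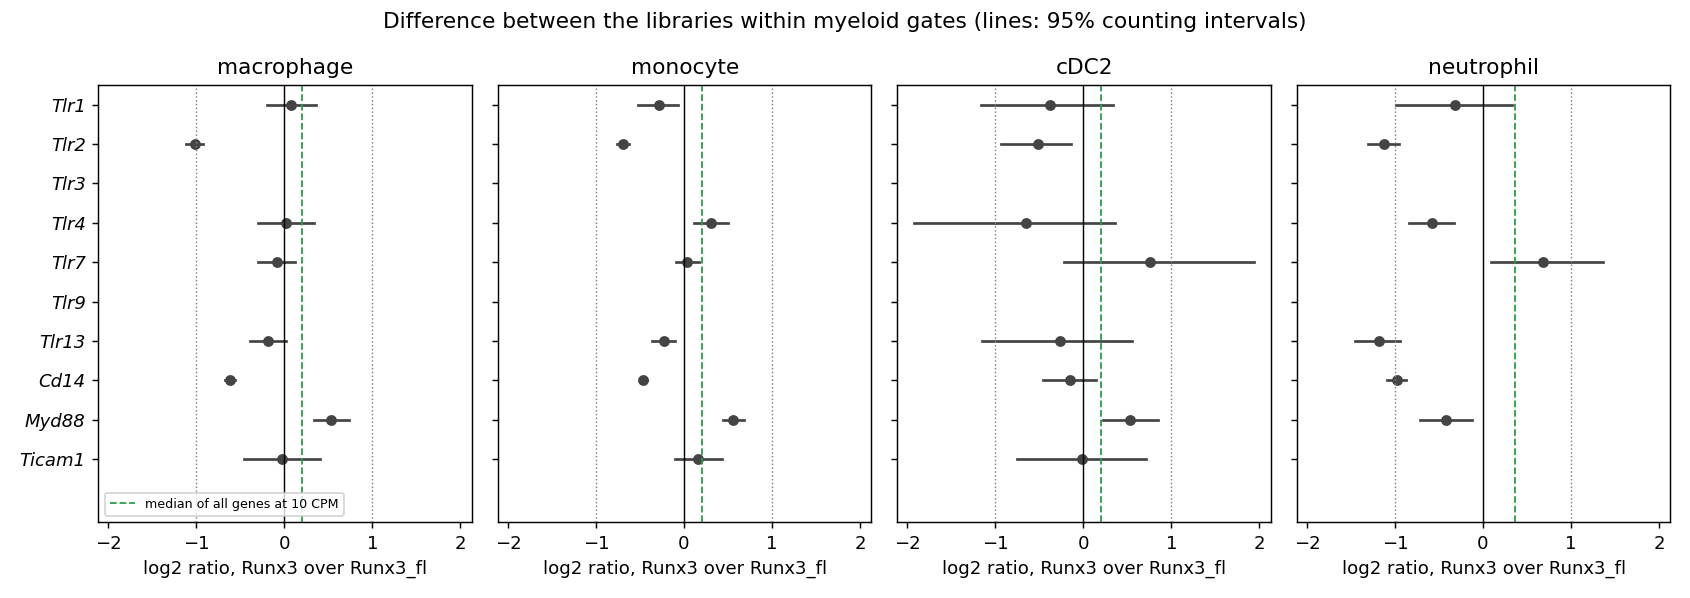
Log2 ratio of CPM plus 1, Runx3-labelled library over Runx3_fl-labelled library, for members at 10 CPM or more in 4 myeloid gates; lines are 95% counting intervals, dotted lines mark 2-fold and the green dashed line is the median of all genes at 10 CPM in that gate. Tlr2 and Cd14 lie left of 0 in macrophages, monocytes and neutrophils, and Myd88 lies right of 0 in all gates shown but neutrophils.

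Among the endosomal receptors, Tlr3 (chromosome 8, 45395665 to 45411080), the receptor for double-stranded RNA, was concentrated in cDC1, a cell type known for it. It was at 93.5 CPM (85.8 to 102) in cDC1 of the Runx3_fl-labelled library and at 125 CPM (92.5 to 166) in the 19 cells of the Runx3-labelled library, and these were not told apart. The cDC1 level was 16.5 times that of the next class in the first library and 15.7 times in the second. After each cell was thinned to 2000 UMIs, 15.9% of 232 cDC1 cells (11.5 to 21.3, Clopper-Pearson) and 5 of 19 had a Tlr3 UMI. In macrophages, whose median depths were 14648 and 12862 UMIs, 0.985% and 1.22% did, and in T cells 0.0786% and 0.400%. Without thinning, the cDC1 shares were 68.9% and 57.9% at median depths of 24179 and 19485 UMIs.

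Tlr7, which reads single-stranded RNA, and Tlr13, which reads bacterial ribosomal RNA, are both on the X chromosome, at 167304929 to 167330558 and 106143204 to 106160493. Tlr7 was at 61.7 CPM (57.5 to 66.0) in monocytes of the Runx3_fl-labelled library and at 63.4 CPM (59.4 to 67.5) in those of the Runx3-labelled library, a ratio of 0.04 (-0.10 to 0.17). In macrophages it was at 58.9 and 55.4 CPM, a ratio of -0.08 (-0.30 to 0.12). Monocytes and macrophages were not told apart in either library, and neutrophils followed at 17.0 and 27.9 CPM.

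Tlr13 was highest in neutrophils, where it was at 169 CPM (151 to 190) in the Runx3_fl-labelled library and 74.0 CPM (64.4 to 84.5) in the Runx3-labelled library. The ratio was -1.19 (-1.46 to -0.94), at least 2-fold. It was at 70.2 and 59.8 CPM in monocytes, a ratio of -0.23 (-0.36 to -0.10), and at 63.6 and 55.9 CPM in macrophages, a ratio of -0.18 (-0.39 to 0.02). Because Xist differed so widely, the other X-linked genes were read beside these receptors. Their median log2 ratio was 0.08 over 225 genes in macrophages and 0.36 over 224 genes in neutrophils, against 0.21 and 0.37 for genes elsewhere.

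Tlr9 (chromosome 9, 106222598 to 106226883), the CpG DNA receptor, stayed below 10 CPM in all 8 classes of both libraries. In macrophages it was at 1.14 CPM (0.460 to 2.36) in the Runx3_fl-labelled library, from 7 UMIs. Its highest levels were 2.43 CPM in monocytes of the Runx3_fl-labelled library and 4.21 CPM (2.84 to 6.01) in macrophages of the Runx3-labelled library. No UMI was found in neutrophils, B cells or NK cells of the Runx3_fl-labelled library, which for neutrophils allows up to 1.70 CPM.

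Myd88, the adaptor shared by most of the receptors (chromosome 9, 119335934 to 119341411), was the one member higher in the Runx3-labelled library in macrophages, monocytes and Cd209a-gated cells with intervals clear of 0. It was at 54.0 CPM (48.3 to 60.1) against 78.0 CPM (71.7 to 84.8) in macrophages, a log2 ratio of 0.52 (0.33 to 0.73). It was at 66.0 and 97.7 CPM in monocytes, a ratio of 0.56 (0.44 to 0.69). It was at 73.1 and 106 CPM in Cd209a-gated cells, a ratio of 0.53 (0.22 to 0.85). Neutrophils went the other way, at 101 and 75.7 CPM, a ratio of -0.42 (-0.71 to -0.13), which turned to 0.42 with single-gene gates at 1 UMI. In the neutrophils with few granule transcripts described below, Myd88 was at 101 and 89.0 CPM. The ratio there was -0.17, with an interval that crossed 0 (-0.52 to 0.16). Reads of Myd88 may be shared with Slc22a14, whose annotation overlaps it on the same strand, so its level is uncertain.

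Myd88 was also measured outside myeloid cells. T cells were at 30.02 CPM (28.3 to 31.8) and 35.3 CPM (28.4 to 43.4), and NK cells at 25.4 and 28.7 CPM, with ratio intervals that crossed 0 in both. B cells, at 7.96 and 19.3 CPM, were lowest in both libraries.

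Ticam1 (chromosome 17, 56269319 to 56276786), which encodes the adaptor TRIF, had ratio intervals that crossed 0 in all the myeloid gates. It was at 14.1 and 13.8 CPM in macrophages, a ratio of -0.03 (-0.46 to 0.40), at 15.6 and 17.5 CPM in monocytes and at 17.5 and 17.3 CPM in Cd209a-gated cells. Neutrophils held less, 5.67 CPM (2.72 to 10.4) and 8.26 CPM (5.29 to 12.3). In cDC1 it was at 14.5 CPM and, from 2 UMIs, 5.22 CPM, a ratio of -1.31 whose interval of -4.54 to 0.43 crossed 0.

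Counted by class, 0 of 8 tested members were at least 2-fold apart in monocytes, where 9.37% of all genes were higher and 2.49% lower. In Cd209a-gated cells it was 0 of 8, against 11.6% and 2.28%. In neutrophils 2 of 7, Tlr2 and Tlr13, were lower, against 8.51% of all genes, and 0 were higher, against 22.6%. With the mean over cells in place of summed UMIs the neutrophil ratios were -0.53 for Tlr2, -0.92 for Tlr13 and -0.28 for Cd14, so neither call held. The members' median ratio was -0.06 in macrophages, -0.09 in monocytes and -0.58 in neutrophils. In cDC1, resting on 19 cells, 3 of 6 (Tlr2, Tlr13 and Cd14) were higher, against 11.1% of all genes. Ticam1 alone was lower, against 6.93%. Cd14 there was at 15.7 and 52.2 CPM, the latter near the 54.1 CPM of T cells that is read below as a floor. It lay above the 21.1 CPM of B cells and the 18.1 CPM of NK cells, so the comparison depends on the gate taken as floor. Tlr2 and Tlr13, at 39.2 and 36.6 CPM in the Runx3-labelled library, lay above their T cell levels of 13.3 and 3.92 CPM. For Tlr2 the cDC1 interval (21.9 to 64.6 CPM) overlapped that of NK cells (9.37 to 31.7 CPM). S100a8, a neutrophil gene, was at 7.33 and 60.1 CPM in cDC1, and its part was not tested.

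Neutrophils of the Runx3-labelled library held cells with transcripts of the secondary granules, which are made while neutrophils mature in the bone marrow. Camp, a granule antimicrobial peptide, was at 2.27 CPM in neutrophils of the Runx3_fl-labelled library and at 10908 CPM in those of the Runx3-labelled library. Cells with at least 3 summed UMIs of the granule genes Camp, Ltf and Ngp made up 1.40% (6 cells) and 26.0% (106 cells) of the gate. In those 106 cells Cd14 was at 71.2 CPM (58.4 to 86.1), Tlr2 at 59.2 CPM (47.6 to 72.9) and Tlr4 at 61.2 CPM (49.4 to 75.1). The 6 such cells of the Runx3_fl-labelled library held Cd14 at 762 CPM (459 to 1190) and Tlr2 at 561 CPM (307 to 942). These rest on 19 and 14 UMIs. The whole neutrophil gate of that library held 4 UMIs of Camp, 5 of Ngp and 55 of Ltf. The gate of the Runx3-labelled library held 31707, 40487 and 11806. Whether the 6 cells are of the same kind as the 106 was not tested.

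In the remaining 422 and 301 neutrophils, a split chosen after seeing the data, most differences shrank. Cd14 was at 836 CPM (794 to 881) in the Runx3_fl-labelled library and 801 CPM (755 to 849) in the Runx3-labelled library, a ratio of -0.06 (-0.18 to 0.05). Tlr4 was at 140 and 126 CPM, a ratio of -0.15 (-0.44 to 0.14). Neither was told apart between the libraries in these cells, but both intervals lay below the 0.37 of the median gene there. Tlr2 was still lower, at 348 against 268 CPM, a ratio of -0.38 (-0.57 to -0.19). Tlr13 was at 171 and 115 CPM, a ratio of -0.58 (-0.87 to -0.30). Tlr7 was higher, at 17.2 CPM (11.6 to 24.6) against 49.1 CPM (38.2 to 62.2), a ratio of 1.46 (0.87 to 2.18). S100a8, a neutrophil gene at 5965 and 60127 CPM over the whole gate, was at 5902 and 5861 CPM in these cells. The libraries still differed there, with Lyz2 at 848 and 339 CPM. Of all genes at 10 CPM or more in these cells, 18.5% were at least 2-fold higher in the Runx3-labelled library and 3.72% lower.

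Granule transcripts also appeared in macrophages and monocytes of the Runx3-labelled library, with Camp at 178 and 619 CPM against 0 and 0.147 CPM. In the 393 and 260 macrophages without a UMI of the 3 granule genes, a choice also made after seeing the data, the ratio was -1.06 for Tlr2, -0.62 for Cd14 and 0.58 for Myd88. Those differences were as large without the granule-positive cells as with them. The choice kept 393 of 406 macrophages of the Runx3_fl-labelled library but 260 of 498 of the Runx3-labelled library. The part of granule transcripts in these differences was not tested.

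Macrophages were divided by the inflammatory genes Nos2, Il6 and Il12b, since cells with at least 2 summed UMIs of them made up 203 of 406 cells in the Runx3_fl-labelled library and 75 of 498 in the Runx3-labelled library. Cd14 had a ratio just above 0 in cells with these transcripts and one well below 0 in cells without them. The former lay below the 0.20 of the median gene in all gated macrophages, so it is not read as a rise. In cells with these transcripts it was at 1040 CPM (1005 to 1075) in the Runx3_fl-labelled library and 1151 CPM (1095 to 1208) in the Runx3-labelled library, a ratio of 0.15 (0.06 to 0.23). In cells without them it was at 898 CPM (863 to 933) against 508 CPM (490 to 527), a ratio of -0.82 (-0.90 to -0.74). Weighting the 2 kinds of macrophage equally in both libraries brought the Cd14 ratio from -0.62 to -0.22.

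Tlr2 was lower in the Runx3-labelled library in both kinds of macrophage. It was at 372 and 219 CPM in cells with the inflammatory transcripts, a ratio of -0.76 (-0.95 to -0.58), and at 337 and 164 CPM in cells without them, a ratio of -1.03 (-1.17 to -0.90). Equal weighting gave -0.88, no longer 2-fold. Myd88 was higher in both, with ratios of 0.77 (0.44 to 1.12) and 0.44 (0.18 to 0.72).

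In monocytes the inflammatory transcripts marked 46.1% and 11.2% of cells. With them Cd14 was at 985 and 936 CPM, a ratio of -0.07 (-0.14 to -0.002), and without them at 573 and 494 CPM, a ratio of -0.21 (-0.27 to -0.16). Tlr2 was at 369 and 274 CPM with them and at 292 and 191 CPM without them. Both genes were higher in the cells with inflammatory transcripts in both libraries.

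**Figure D3:**
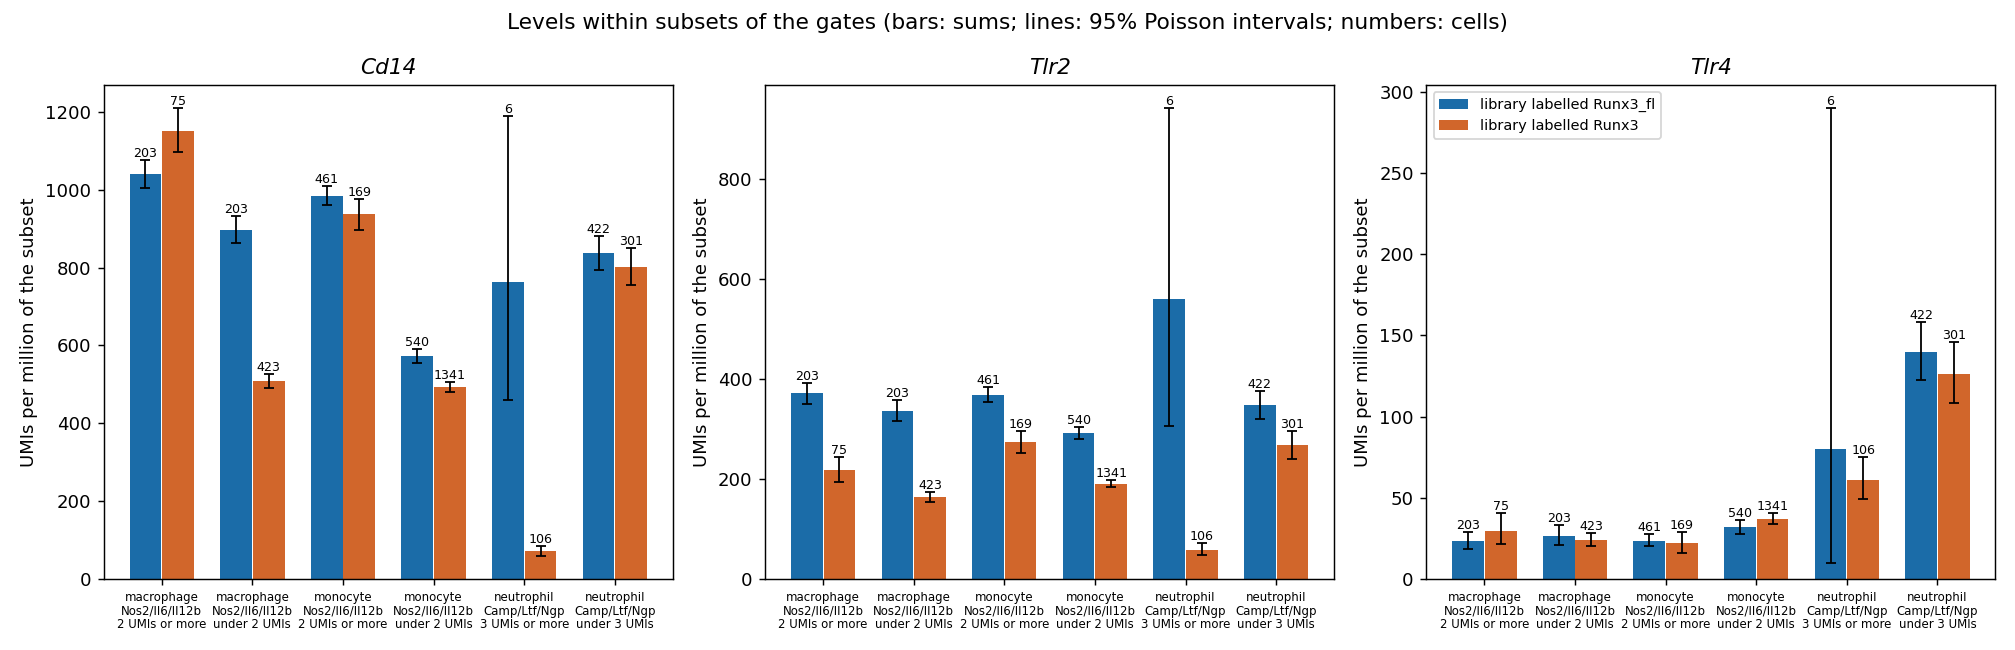
CPM (vertical axes, linear from 0) of Cd14, Tlr2 and Tlr4 in subsets of the macrophage, monocyte and neutrophil gates; blue bars are the Runx3_fl-labelled library, orange bars the Runx3-labelled library, lines are 95% Poisson intervals and the number above each bar is its cells. In neutrophils under 3 granule gene UMIs the Cd14 bars stand at 836 and 801 CPM, while the 106 granule-positive cells of the Runx3-labelled library stand at 71.2 CPM.

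Macrophages were also divided by Ly6c2, a gene of newly arrived monocytes, which was at 603 and 1712 CPM in the gate. With at least 2 Ly6c2 UMIs (63.3% and 79.9% of the gate) Tlr2 was at 404 and 193 CPM, a ratio of -1.06 (-1.18 to -0.96). In the other macrophages it was at 265 and 87.7 CPM, a ratio of -1.58 (-1.91 to -1.29). Cd14 had a ratio of -0.66 in both. Within each library both genes were higher in the Ly6c2-positive macrophages.

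The share of cells with a UMI was compared after thinning each cell to 2000 UMIs, because depth differed between libraries and classes. Cd14 was seen in 71.7% of macrophages (67.0 to 76.0) of the Runx3_fl-labelled library and 50.8% (46.3 to 55.3) of those of the Runx3-labelled library. In monocytes it was seen in 63.4% and 45.4%, and in neutrophils in 54.5% and 42.1%. T cells, which should lack Cd14, gave 1.38% and 3.60% at median depths of 13694 and 8847 UMIs. Tlr2 was seen in 40.1% (35.3 to 45.1) and 25.5% (21.7 to 29.6) of macrophages, against 0.432% and 2.80% of T cells. Unthinned, the macrophage shares were 93.6% and 79.9% for Cd14 and 86.2% and 66.9% for Tlr2.

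After the same thinning Tlr4 was seen in 4.68% and 6.53% of macrophages and in 19.9% (16.0 to 24.2) and 17.7% (13.9 to 22.1) of neutrophils. Tlr7 was seen in 11.8% and 10.8% of macrophages, and Tlr13 in 25.1% and 20.2% of neutrophils. Myd88 was seen in 8.13% (5.66 to 11.2) and 13.1% (10.2 to 16.4) of macrophages. Thinning left out 41 and 46 shallower neutrophils, 0 and 8 macrophages, and 0 and 119 monocytes.

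**Figure D4:**
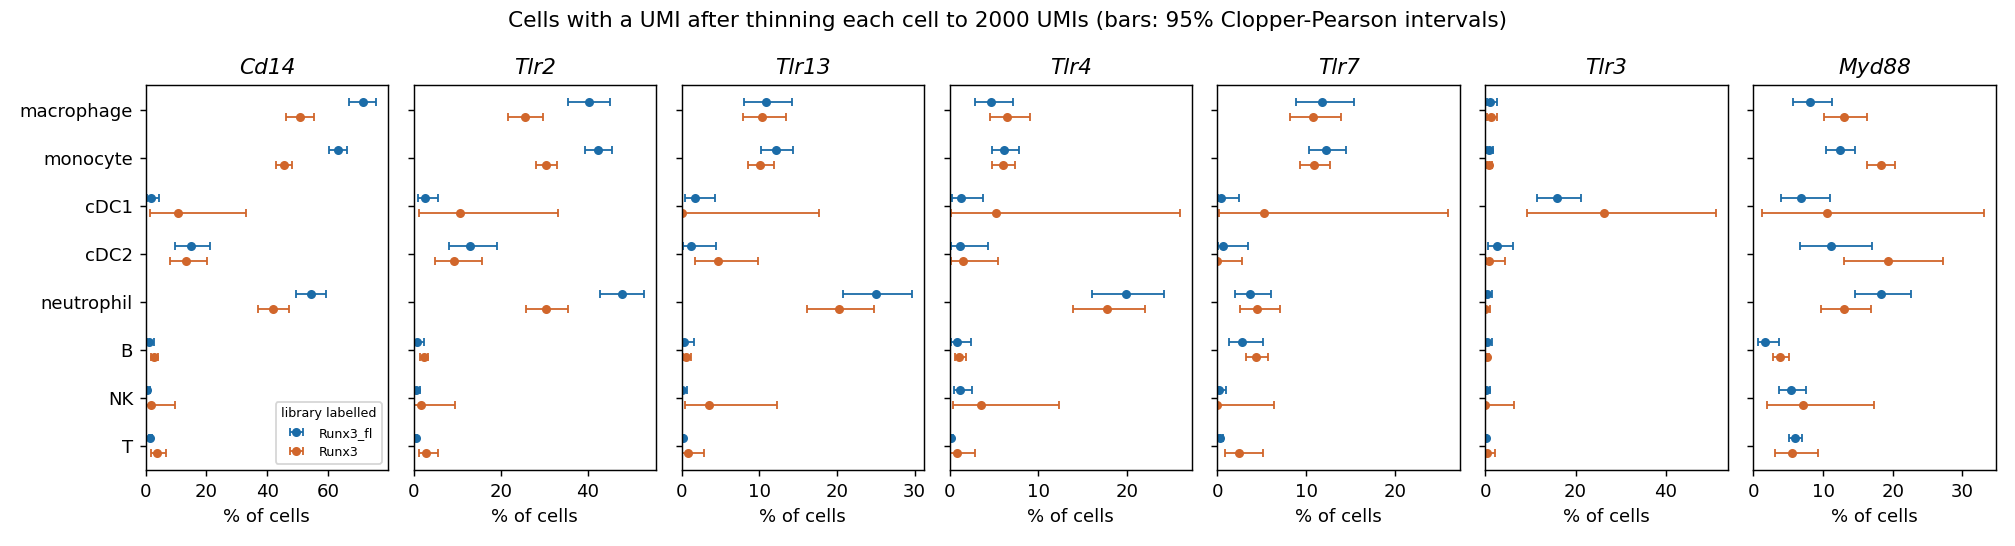
Percent of cells of each gate with at least 1 UMI of the member after thinning every cell to 2000 UMIs; points are shares, bars are 95% Clopper-Pearson intervals, blue is the Runx3_fl-labelled library and orange the Runx3-labelled library. Cd14 falls on 71.7% and 50.8% of macrophages and on at most 3.60% of B, NK and T cells.

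Levels of myeloid receptors in lymphocyte gates were low, and higher in the Runx3-labelled library. Tlr2 was at 4.49 and 13.3 CPM in T cells, 4.33 and 13.4 CPM in B cells and 2.21 and 18.1 CPM in NK cells. Cd14 was at 9.62 and 54.1 CPM in T cells, 3.35 and 21.1 CPM in B cells and 3.68 and 18.1 CPM in NK cells. These levels were read as a floor for the myeloid values and not as expression. S100a8 moved the same way, from 4.03 to 91.0 CPM in T cells, 1.68 to 98.9 CPM in B cells and 2.02 to 90.7 CPM in NK cells; its part in these values was not tested. At 10 CPM or more, 4 of 4 members were at least 2-fold higher in B cells, against 18.5% of all genes, and 0 were lower, against 16.1%. In NK cells 2 of 4 were higher, against 8.10%, and 0 lower, against 2.87%. In T cells 3 of 4 were higher, against 12.8%, and 0 lower, against 8.70%. Every member called in these 3 gates passed 10 CPM only through the Runx3-labelled library and so could only come out higher, and nothing is read from these counts.

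B cells are known to use TLR7. In the B gate it was at 9.21 CPM (7.13 to 11.7) against 24.8 CPM (21.7 to 28.2), a ratio of 1.34 (1.03 to 1.84). Cells with at least 3 UMIs of Jchain, a gene of antibody-secreting cells, made up 61.1% and 9.03% of that gate. Among the other B cells, a split chosen after seeing the data, Tlr7 was at 21.5 CPM (13.3 to 32.9) against 29.7 CPM (25.8 to 34.0) and was not told apart between the libraries (-0.18 to 1.19). Among the Jchain-positive cells it was at 7.27 and 10.1 CPM. Tlr7 was also higher in the Runx3-labelled library in T cells, at 1.13 and 12.2 CPM. In NK cells it was at 0.368 and 4.53 CPM, from 2 and 3 UMIs. How much of the B gate level is floor was not tested.

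The remaining pathway was read from a list of 46 receptors, chaperones, adaptors, kinases, transcription factors and brakes. In macrophages 39 were at 10 CPM or more, of which 2 were at least 2-fold higher in the Runx3-labelled library, against 11.0% of all genes, and 0 were lower, against 2.97%. The median ratio of the list was -0.07. Irf7, a transcription factor induced by interferon and used by TLR7 and TLR9, was at 79.5 CPM (72.6 to 86.9) against 387 CPM (373 to 402), a ratio of 2.27 (2.14 to 2.43). Ly86, which encodes MD-1, the partner of the TLR4-like protein RP105, was at 202 CPM (191 to 214) against 457 CPM (441 to 473), a ratio of 1.17 (1.08 to 1.27). In monocytes 2 of 38 were higher, against 9.37% of all genes, and 0 lower, against 2.49%.

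Just inside 2-fold lay Nfkb1, the NF-kappa B subunit p105, at 2023 and 1020 CPM in macrophages, a ratio of -0.99; it is named after its value was seen. Other receptors of the family were within 2-fold in macrophages. Tlr6, the other partner of TLR2, was at 28.8 and 27.4 CPM and Tlr8 at 13.2 and 10.4 CPM, with ratio intervals that crossed 0. Tlr12 was at 27.0 and 21.5 CPM, a ratio of -0.32 (-0.66 to -0.003). Tlr11 and Tlr12, which bind profilin, were in cDC1 at 28.6 and 28.7 CPM and at 35.4 and 36.6 CPM, respectively.

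In neutrophils 12 of 38 pathway genes were at least 2-fold lower, against 8.51% of all genes, and 3 were higher, against 22.6%. Feedback brakes on the pathway were among the former, such as Nfkbia at 4409 and 1489 CPM and Irak3 at 470 and 161 CPM, named after their values were seen. In neutrophils under 3 granule gene UMIs 1 of 36 was lower, against 3.72% of all genes there, and 4 were higher, against 18.5%. Irak3 was the lower gene, at 458 and 212 CPM, a ratio of -1.11, and Nfkbia was at 4360 and 2599 CPM, a ratio of -0.75. Most of the lower calls thus fell within 2-fold without the granule-positive cells, although Nfkbia was still lower. The median ratio of the list in neutrophils under 3 granule gene UMIs was -0.04, against 0.37 for all genes.

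**Figure D5:**
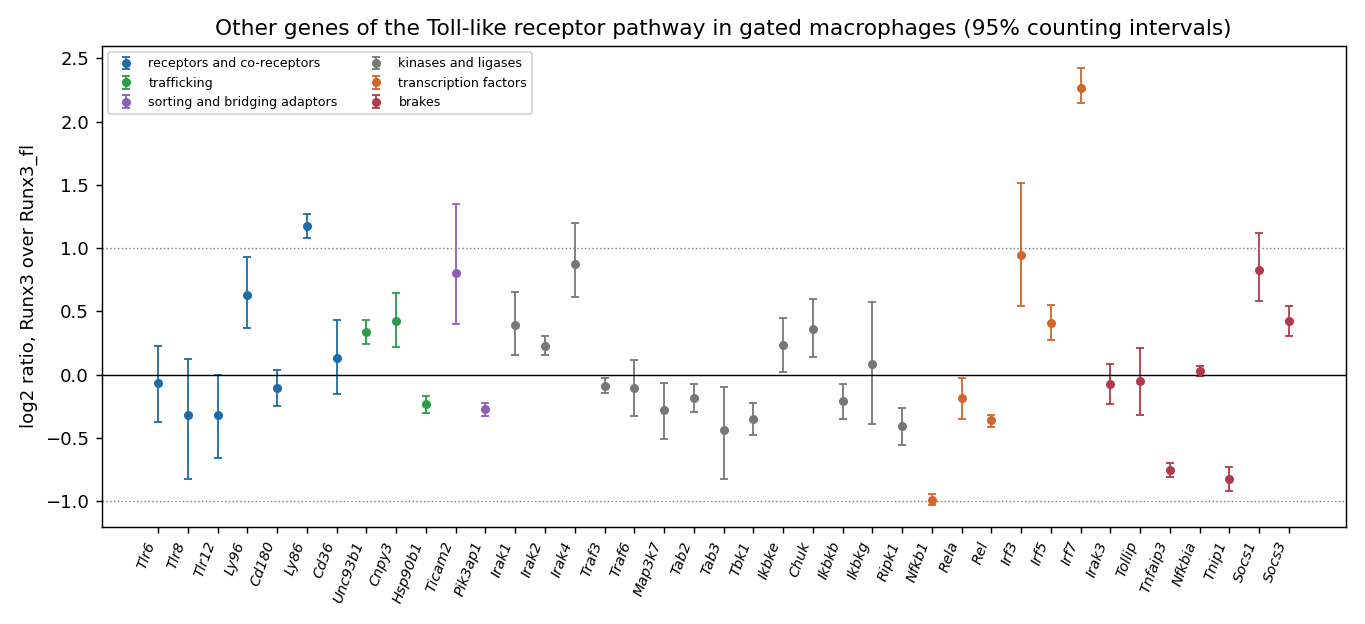
Log2 ratio of CPM plus 1, Runx3-labelled library over Runx3_fl-labelled library, in gated macrophages for the 39 pathway genes at 10 CPM or more, coloured by role; bars are 95% counting intervals and dotted lines mark 2-fold. Irf7 (2.27) and Ly86 (1.17) lie above the upper line and Nfkb1 (-0.99) just inside the lower one.

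Genes with the most similar pattern were ranked by Pearson's r of log2(CPM + 1) over 14 sums, 7 classes in each of 2 libraries, with cDC1 left out for its 19 cells. Among 10647 genes the closest was Ninj1 for Tlr13 (r = 0.99), Fcgr4, an activating IgG receptor, for Cd14 (0.99), App for Tlr2 (0.98) and Tcf7l2 for Tlr1 (0.97). Trem1, an amplifier of inflammatory signalling in neutrophils and monocytes, and Tlr6 were among the 3 closest to Tlr4 (0.94 and 0.93). Clec4n, which encodes Dectin-2, was the second closest to Tlr13 (0.99). Phactr2 was closest to Myd88 (0.97), Cacna1d to Tlr7 (0.93) and Slc35e4 to Ticam1 (0.96). The 14 sums share libraries and differ in depth, and these values describe the ranking only.

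Cells in no gate were 48.1% of the Runx3_fl-labelled library and 45.3% of the Runx3-labelled library. They held Tlr2 at 48.2 and 75.0 CPM, Cd14 at 88.1 and 132 CPM and Myd88 at 37.8 and 63.0 CPM. For Tlr2 and Cd14 these levels lay below those of macrophages, monocytes and neutrophils and above those of lymphocytes in both libraries, so part of the members' RNA was outside the classes described.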

How the data were processed

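The authors deposited, for each of 2 libraries, a filtered 10x Genomics matrix of whole-number UMI counts per gene and cell, made from 3′ chemistry libraries (version 3 kit per the labels). Cell Ranger 7.1.0 is named per the file headers. The submitters' processing notes name build mm10 and Seurat 4. The gene annotation is not given in the sources used here, and gene positions are those of GENCODE M21 (GRCm38). The deposited matrices held 12968 and 8953 cells and 146204416 and 75478164 UMIs.

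The members and gene lists were chosen with earlier results of these data known. Cells with 200 to 6000 genes and at most 15% mitochondrial UMIs were kept, the limits of the study. Gates needed 2 UMIs of each gate gene (1 of Csf1r for monocytes, 0 for neutrophils), and the macrophage gate took precedence over Ly6c2. Doublets were treated by the upper gene limit and by leaving out cells of several gates (453 and 487). Counts were summed by gate and library and given as CPM with exact Poisson intervals, and shares of cells with Clopper-Pearson intervals. With 1 library a group no test was run. Ratios are log2 of CPM plus 1. A gene at 10 CPM or more in a library was called at a 2-fold ratio. Where 0 counts are said to allow a level, that is 3 counts of the class total. Named genes were the members, pathway genes called in macrophages, the 3 genes most alike to each member, and checks of labels and gates. Alternatives to the gates, filters, scaling, added CPM and makeup of gates were computed. The ratio step was tested on simulated data. Tools were matplotlib 3.10.9, pandas 2.3.3, scipy 1.17.1 and numpy 2.4.6 under Python 3.11.15.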

Additional observations from a re-analysis of the deposited data

Results flagged for a closer look

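Tlr2 and Tlr13, where at 10 CPM or more in either library, were apart by at least 2-fold in opposite directions in different gates, with counting intervals clear of 0; the difference between gates was not tested. Log2 ratios of Tlr2, Runx3-labelled library over Runx3_fl-labelled library, were -1.02 in macrophages and -1.13 in neutrophils, but 1.57 in cDC1, 1.43 in B cells, 2.58 in NK cells and 1.38 in T cells. For Tlr13 the ratio was -1.19 in neutrophils and 1.42 in cDC1. The B, NK and T values passed 10 CPM only through the Runx3-labelled library, so they could only be positive, and they are at the level read as a floor. The cDC1 values rest on 19 cells of the Runx3-labelled library, and that of Tlr2 turned to -3.67 with 3 UMIs of each gate gene.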

How the results depend on the processing

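The number of members at least 2-fold apart in macrophages was 1 and rested on Tlr2, whose ratio ranged from -1.25 to -0.86 over 13 alternatives. It became 0 with 1 UMI or with 3 UMIs of each gate gene, with single-gene gates at 1 UMI, with 10 CPM added, and with equal shares of macrophages with and without Nos2, Il6 and Il12b. It became 2 with no filter on low genes (Tlr2 and Tlr9) and with equal shares by Ly6c2 (Tlr2 and Tlr3). The pathway count of 2 became 4 with no UMI of other classes' gate genes, with 500 to 5000 genes and at most 10% mitochondrial UMIs, with the mean over cells, with no filter on low genes and with equal shares by Ly6c2. The count of members with the same highest class in both libraries, 6, ranged from 5 to 8. Reversals in cDC1 were Tlr2 at -3.67 with 3 UMIs of each gate gene (14 cells of the Runx3-labelled library) and, with single-gene gates, Ticam1 at 0.22 and Tlr3, which was not told apart between the libraries, at -0.43; the cause was not tested. Of 533 recomputed values 486 kept their sign. Myd88 stayed above 0 in macrophages (0.32 to 0.61) and monocytes (0.36 to 0.81) under every alternative run. In neutrophils with under 3 granule gene UMIs the ratio was -0.38 for Tlr2 and -0.58 for Tlr13, but 1.46 for Tlr7, past 2-fold, and 0.48 for Tlr1, turned from -0.32. The choices on granule genes and Jchain were added after seeing the data. No paired analysis was possible because each group had 1 library; for the same reason no replicate could be left out. The 19 cDC1 cells limit every member there by cell number.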
